A study of Mus musculus with 6 samples.

Results

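The genes described here encode the AMPA receptor, the receptor for fast glutamate transmission, and the auxiliary proteins that travel with it. They are 10 of the 31053 genes in the deposited tables and were chosen by name: the pore-forming subunits *Gria1*, *Gria2*, *Gria3* and *Gria4*, the transmembrane AMPA receptor regulatory proteins (TARPs) *Cacng2*, *Cacng3* and *Cacng8*, the cornichons *Cnih2* and *Cnih3*, and *Shisa9*, which encodes CKAMP44. Each symbol matched 1 Ensembl identifier. The measure is EPR, the number of C-to-U edits divided by the number of reads of a gene, and edited genes are those whose EPR exceeds 0.

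The libraries came from wild-type (WT) C57BL/6J cortical neurons, cultured from E18 embryos and given floxuridine at DIV 3 to limit dividing cells. At DIV 6 the neurons received an AAV that carries a Ribo-STAMP construct, a ribosomal protein fused to the cytidine deaminase APOBEC1, under a promoter switched on by doxycycline (Dox). A synapsin promoter, active in neurons, drives the Dox-dependent activator rtTA. Both groups were induced with Dox at 1 µg per ml for 48 h and collected at DIV 14. In RPL10A-STAMP (3 libraries) the mouse RPL10A sequence follows APOBEC1, and in RPL22-STAMP (3 libraries) the mouse RPL22 sequence precedes it. Both proteins belong to the large ribosomal subunit. Every library therefore holds the deaminase and Dox. Libraries of RPS2-STAMP and of uninfected neurons were not analysed here, so editing without a construct is not subtracted from any value. Reads and edits behind each EPR are unknown, and no counting error is given.

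AMPA receptors are tetramers of GluA1 to GluA4, the products of *Gria1* to *Gria4*. TARPs, cornichons and CKAMP44 bind the tetramer, carry it to the surface or to synapses, and slow or speed its gating. In cortical pyramidal neurons GluA2 sets calcium permeability, because its mRNA is recoded by adenosine deamination at the Q/R codon of the pore loop. That natural A-to-I editing is another reaction than the C-to-U editing counted here.

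The coding stretches below show how many cytidines, the only bases that APOBEC1 can turn into a counted edit, 4 close paralogs offer over the same 84 bases. They were read from GRCm38, the assembly that mm10 names, on the coding strand of each gene, with cytidines in capitals, and they surround the Q/R codon. They lie at chr11:57243031-57243114 (plus strand) in *Gria1*, chr3:80706893-80706976 (minus strand) in *Gria2*, chrX:41610202-41610285 (plus strand) in *Gria3* and chr9:4464119-4464202 (minus strand) in *Gria4*, all inside coding exons.
Gria1: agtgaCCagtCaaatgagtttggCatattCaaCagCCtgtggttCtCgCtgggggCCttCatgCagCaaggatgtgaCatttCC
Gria2: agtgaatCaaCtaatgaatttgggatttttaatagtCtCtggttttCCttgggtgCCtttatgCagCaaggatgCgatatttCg
Gria3: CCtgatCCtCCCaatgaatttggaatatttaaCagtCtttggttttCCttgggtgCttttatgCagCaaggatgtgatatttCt
Gria4: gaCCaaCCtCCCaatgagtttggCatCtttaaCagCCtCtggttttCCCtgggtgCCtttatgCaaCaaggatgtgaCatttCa
The *Gria2* stretch held 12 cytidines, *Gria3* 15, *Gria1* 19 and *Gria4* 22. Identity over the stretch ranged from 75% between *Gria1* and *Gria2* to 83.3% between *Gria2* and *Gria3*. EPR is 1 value for a whole gene, so the tables do not say whether any edit fell in these bases.

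The cornichon paralogs are shown for the same reason over their first 81 coding bases, at chr19:5098183-5098263 (minus strand) in *Cnih2* and chr1:181353426-181353506 (plus strand) in *Cnih3*.
Cnih2: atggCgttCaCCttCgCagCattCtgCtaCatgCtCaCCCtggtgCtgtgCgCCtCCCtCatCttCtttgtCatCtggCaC
Cnih3: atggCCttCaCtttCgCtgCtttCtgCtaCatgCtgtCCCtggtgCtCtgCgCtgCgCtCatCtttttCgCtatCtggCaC
They share 82.7% of these bases and hold 29 and 27 cytidines. No exact copy of at least 50 bases was found elsewhere in the genome for 9 of the 10 transcripts, and such copies covered 1.78% of the *Cacng2* transcript. At its own locus the same search found 47.5% of the *Cnih3* transcript, against 95.6% or more for the others, so it was less complete for *Cnih3*.

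All 10 genes were edited, 9 of them in all 6 libraries. In each library their EPR was set against all genes edited there. *Gria3* and *Cnih2* lay high in every library, between the 74.5th and 92.0th percentile and between the 77.3rd and 92.4th percentile. *Cacng3* lay low, between the 19.7th and 52.2nd percentile. The median over the 9 genes was 0.0142, 0.0247 and 0.0201 with RPL10A-STAMP against 0.0129, 0.0145 and 0.0138 with RPL22-STAMP. These ranges overlapped, with a difference of means of 0.00592, and RPL10A-STAMP replicate 1 lay among the RPL22-STAMP libraries. The mean over the same 9 genes did not overlap between the constructs, at 0.0192 to 0.0269 against 0.0135 to 0.0162 (difference of means 0.00928). The median gene, taken over the 8046 genes edited in all 6 libraries, moved too. It ranged from 0.0120 to 0.0161 with RPL10A-STAMP and from 0.00907 to 0.0129 with RPL22-STAMP. Divided by it, the 9 genes stood at 1.35 ± 0.24 (SD, n = 3) and 1.26 ± 0.15 (SD, n = 3) times the median gene, again with overlap.

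**Figure D1:**
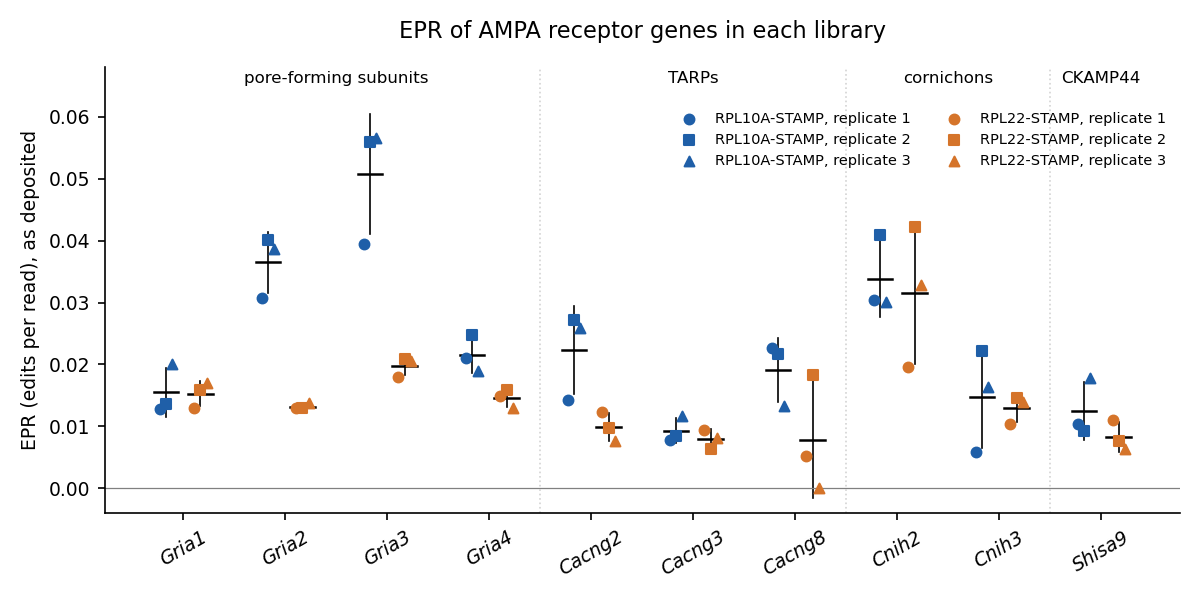
EPR as deposited (y axis, edits per read) of the 10 genes in each library (points; bars are the mean and SD of 3 libraries). With RPL10A-STAMP *Gria2* and *Gria3* stand at 0.0308 to 0.0566, each above its own value in every RPL22-STAMP library, and *Cacng8* is listed at 0 in 1 RPL22-STAMP library.

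*Gria2* and *Gria3* were edited more with RPL10A-STAMP than with RPL22-STAMP, and no other gene of the receptor passed the test between the constructs. Neither passed once a trend with GC content was removed from the libraries (limma, adjusted p = 0.305 and 0.0756). For *Gria2* (GluA2, chr3:80681450-80802835, minus strand), EPR was 0.0308, 0.0401 and 0.0386 in the RPL10A-STAMP libraries and 0.0129, 0.0129 and 0.0138 in the RPL22-STAMP libraries. The lowest RPL10A-STAMP value was more than double the highest RPL22-STAMP value, and the RPL22-STAMP libraries hardly differed among themselves. The means were 0.0365 ± 0.0050 and 0.0132 ± 0.00054 (SD, n = 3 each), a ratio of 2.76. After each library was scaled to its median gene, the log2 fold change of EPR + 0.01 was 0.73 ± 0.14 (SE; limma, adjusted p = 0.0172). Adding 0.01 makes such a fold change smaller than the ratio of low EPR values. The scaling lowered it too: without the 0.01 the scaled value was 1.07 (limma, adjusted p = 0.0199), against 1.47 for the log2 ratio of the deposited means.

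*Gria3* (GluA3, encoded on the X chromosome, chrX:41400854-41678601, plus strand) behaved alike. Its EPR was 0.0395, 0.0560 and 0.0566 with RPL10A-STAMP against 0.0180, 0.0208 and 0.0205 with RPL22-STAMP. The groups did not overlap, and the lowest RPL10A-STAMP library was nearly double the highest RPL22-STAMP library. The means of 0.0507 ± 0.0097 and 0.0198 ± 0.0015 (SD, n = 3 each) gave a ratio of 2.56 and a scaled log2 fold change of 0.72 ± 0.13 (SE; limma, adjusted p = 0.0153). In bulk cultures the share of a gene's reads from cells with the construct and the editing per mRNA there cannot be told apart.

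The other subunits differed less. For *Gria1* (GluA1, which is added to synapses during potentiation; chr11:57011387-57330244, plus strand), EPR was 0.0128, 0.0137 and 0.0201 with RPL10A-STAMP against 0.0130, 0.0159 and 0.0170 with RPL22-STAMP. The groups overlapped over nearly their whole range. The scaled log2 fold change was -0.23 (95% interval -0.56 to 0.09; limma, adjusted p = 0.292). For *Gria4* (GluA4, found early in development and in interneurons; chr9:4417896-4796234, minus strand), EPR was 0.0210, 0.0247 and 0.0190 with RPL10A-STAMP against 0.0150, 0.0158 and 0.0130 with RPL22-STAMP. As deposited these groups did not overlap, but after scaling they did, with a log2 fold change of 0.11 (95% interval -0.27 to 0.49; limma, adjusted p = 0.689).

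Neither of the 2 TARPs tested was called by limma, and neither had an unadjusted p below 0.05. *Cacng2* encodes stargazin, the TARP that links the receptor to the postsynaptic scaffold (chr15:77991748-78120028, minus strand). Its EPR was 0.0142, 0.0271 and 0.0258 with RPL10A-STAMP against 0.0123, 0.00976 and 0.00763 with RPL22-STAMP. Every deposited RPL10A-STAMP value was the higher, though RPL10A-STAMP replicate 1 lay close to the RPL22-STAMP libraries. After scaling the groups overlapped and the log2 fold change was 0.44 (95% interval -0.01 to 0.89; limma, adjusted p = 0.173). Of its exon bases 5.86% overlap *A730060N03Rik* on the other strand, and the strand setting used to count reads is not given in the sources used here.

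*Cacng3* encodes γ-3, a TARP of the same type in forebrain neurons (chr7:122670492-122769393, plus strand). Its EPR of 0.00784, 0.00843 and 0.0117 with RPL10A-STAMP overlapped that of 0.00944, 0.00630 and 0.00807 with RPL22-STAMP. The scaled log2 fold change was -0.09 (95% interval -0.47 to 0.29; limma, adjusted p = 0.752). *Cacng8* encodes γ-8, the TARP best known from hippocampus (chr7:3390683-3415648, plus strand). It had 0.0227, 0.0216 and 0.0132 with RPL10A-STAMP against 0.00522 and 0.0183 with RPL22-STAMP replicates 1 and 2, and was listed at 0 in replicate 3. It was therefore left out of the test. A wider test, of genes edited in 3 or more libraries, gave it 0.66 on the log2 scale (limma, adjusted p = 0.381).

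The cornichons raise surface expression of the receptor and slow its closing. *Cnih2* (chr19:5092868-5098521, minus strand) had an EPR of 0.0304, 0.0409 and 0.0301 with RPL10A-STAMP against 0.0195, 0.0422 and 0.0328 with RPL22-STAMP. Both the lowest and the highest of these values came from RPL22-STAMP. The scaled log2 fold change was -0.18 (95% interval -0.60 to 0.25; limma, adjusted p = 0.550).

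*Cnih3* (chr1:181352628-181460641, plus strand) had an EPR of 0.00582, 0.0222 and 0.0163 with RPL10A-STAMP against 0.0103, 0.0145 and 0.0140 with RPL22-STAMP. The RPL10A-STAMP libraries enclosed the RPL22-STAMP libraries. The log2 fold change was -0.18 (95% interval -0.68 to 0.32; limma, adjusted p = 0.604). *Shisa9* encodes CKAMP44, a transmembrane modulator of desensitization (chr16:11984113-12270902, plus strand). Its EPR was 0.0104, 0.00919 and 0.0178 with RPL10A-STAMP against 0.0110, 0.00771 and 0.00632 with RPL22-STAMP. The groups overlapped, and the log2 fold change was 0.07 (95% interval -0.40 to 0.55; limma, adjusted p = 0.839).

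In all, 2 of the 9 genes tested were called, both higher with RPL10A-STAMP. Of all 8046 genes tested, limma called 14.3% in either direction and 8.51% as higher with RPL10A-STAMP. The scaled values of *Gria2* and *Gria3* were above every RPL22-STAMP library in every RPL10A-STAMP library, which was so for 20.0% of all genes. As deposited, *Gria2*, *Gria3*, *Gria4* and *Cacng2* had no overlap in that direction, against 28.2% of all genes. The median log2 fold change over the 9 genes was 0.07 and over all genes -0.01. Without library scaling the same 2 genes were called (*Gria2* 1.00, limma, adjusted p = 0.0128; *Gria3* 1.02, limma, adjusted p = 0.0171). There 88.1% of all calls were higher with RPL10A-STAMP, against 59.6% with scaling.

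Both calls were lost in other settings. With the methods' t-test on the deposited EPR no receptor gene passed after adjustment. At an unadjusted p of 0.05 it passed 4 of the 9, *Gria2*, *Gria3*, *Gria4* and *Cacng2*, each higher with RPL10A-STAMP, and 24.8% of all genes. The authors describe this test for another comparison, with that threshold and a fold-change cutoff that was not applied here. They mention both adjusted and unadjusted p values for it. With the trend with transcript length removed *Gria2* had 0.53 (limma, adjusted p = 0.0530). Without RPL10A-STAMP replicate 2 the limma adjusted p was 0.0673 for *Gria2* and 0.0622 for *Gria3*, and without RPL10A-STAMP replicate 3 it was 0.0619 and 0.0640. Without RPL10A-STAMP replicate 1, *Gria2* alone was lost (limma, adjusted p = 0.0533). The log2 fold changes over the 6 omissions ranged from 0.65 to 0.82 for *Gria2* and from 0.67 to 0.78 for *Gria3*.

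**Figure D2:**
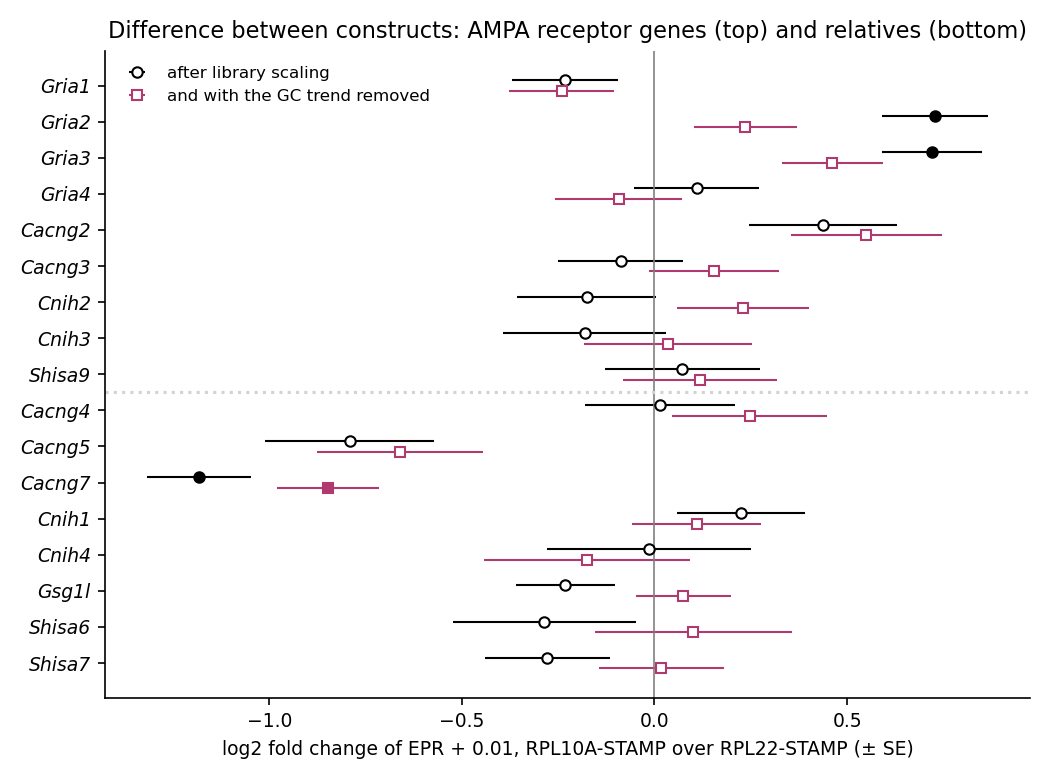
Log2 fold change of scaled EPR + 0.01, RPL10A-STAMP over RPL22-STAMP (x axis, bars are SE, n = 3 libraries each), for the 9 AMPA receptor genes tested and 8 relatives below the dotted line, before (circles) and after (squares) the trend with GC content was removed; filled symbols passed an adjusted p of 0.05. *Gria2* and *Gria3* are filled at 0.73 and 0.72 and open at 0.24 and 0.46 after removal, while *Cacng7* is filled in both.

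GC content ran with the difference between the constructs, and the AMPA receptor genes lay at both ends of it. The transcript model with the longest coding sequence stood for each gene. The *Gria2* transcript, 10371 bases long with a 3′ untranslated region of 7268 bases, had 36.8% GC, lower than all but 0.784% of the genes tested. *Gria3* had 43.0% GC (16.6th percentile), *Gria4* 44.3% (23.9th percentile) and *Gria1* 48.5% (48.0th percentile). The transcript models of the auxiliary proteins were richer in GC, from 49.8% in *Shisa9* to 62.3% in *Cnih2* and 65.1% in *Cacng8*. Some of these models lack untranslated regions. That of *Cnih3* is 564 bases, all coding, that of *Cacng8* has 43 bases of 3′ untranslated region, and that of *Shisa9* has no 5′ untranslated region. Their GC content, and the GC removal for *Cnih3* and *Shisa9*, rest on the parts annotated.

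Of 10 equal groups of the tested genes, the one with the least GC (up to 41.4%) had a median log2 fold change of 0.38, and 27.4% of it was called as higher with RPL10A-STAMP. The one with the most GC (57.1% or more) had a median of -0.32, and 0.373% of it was called in that direction. *Gria2* belongs to the first of these and *Cnih2* to the second. After a smooth trend with GC content was removed from each library, the log2 fold change of *Gria2* was 0.24 ± 0.13 (SE; limma, adjusted p = 0.305) and that of *Gria3* 0.46 ± 0.13 (SE; limma, adjusted p = 0.0756). With limma 0 of the 9 genes were then called, against 8.25% of all genes, and 2, *Gria3* and *Cacng2*, had an unadjusted p below 0.05. The removal lowered *Gria2* by 0.49 and raised *Cnih2* by 0.41. *Cacng2*, near the middle of the GC range, had 0.55 (95% interval 0.09 to 1.01; limma, adjusted p = 0.126) after removal. What GC content contributes to the *Gria2* and *Gria3* differences, beyond these values, was not tested.

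**Figure D3:**
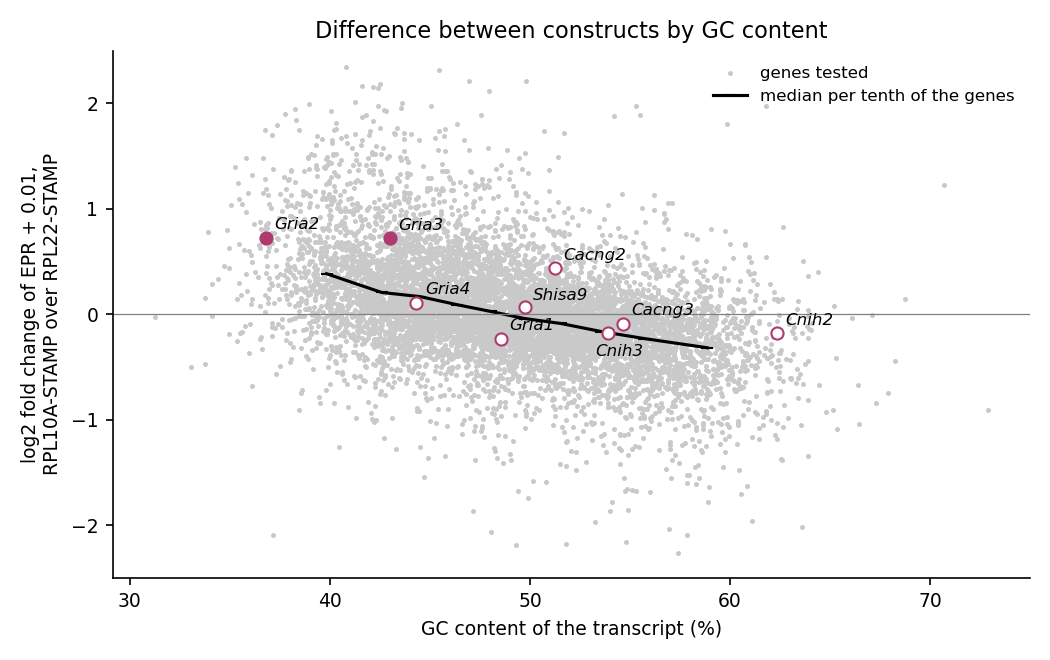
GC content of the transcript (x axis, percent) against the log2 fold change of scaled EPR + 0.01, RPL10A-STAMP over RPL22-STAMP (y axis), for the genes tested (grey; 7 lie beyond the axis), with the median of each of 10 equal groups by GC (line) and the 9 AMPA receptor genes (ringed; filled where called). The line runs from 0.38 at low GC to -0.32 at high GC; *Gria2*, *Gria3* and *Cacng2* lie above it and *Gria1* below.

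A ratio of EPR between paralogs in the same library is free of any factor that multiplies all genes alike. It is not free of a trend with GC content. Of the 10 pairs within the families, 8 were tested, and the pairs of *Cacng8* with the other TARPs were not, because of its value of 0. *Gria3* exceeded *Gria2* in 6 of 6 libraries, and the *Gria2*/*Gria3* ratio was steady, from 0.682 to 0.778 with RPL10A-STAMP and from 0.619 to 0.716 with RPL22-STAMP. The mean log2 ratio was -0.52 ± 0.11 (SD, n = 6; exact sign-flip permutation test, p = 0.03125, the smallest that 6 libraries allow, adjusted p = 0.0781 over 10 pairs). *Gria3* also exceeded *Gria1* and *Gria4*, and *Cnih2* exceeded *Cnih3*, in 6 of 6 libraries with the same exact p-values. Their geometric mean ratios were 0.484 for *Gria1*/*Gria3*, 1.78 for *Gria3*/*Gria4* and 2.47 for *Cnih2*/*Cnih3*. None of the 8 pairs passed 0.05 after adjustment, and 4 had an unadjusted exact p below it. Those 4 were at the smallest p that 6 libraries allow, and their adjusted p over 10 pairs could not fall below 0.0781. That none passed therefore does not show that these paralogs were edited alike.

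*Gria1* and *Gria2* changed order between the constructs. The *Gria1*/*Gria2* ratio was 0.416, 0.342 and 0.520 with RPL10A-STAMP against 1.01, 1.23 and 1.23 with RPL22-STAMP. *Gria2* had the higher EPR in all 3 RPL10A-STAMP libraries and the lower in all 3 RPL22-STAMP libraries, though in replicate 1 of the latter the values were nearly equal. The mean log2 ratios differed by -1.46 (two-sided exact permutation test, p = 0.1, the smallest that 3 libraries against 3 allow). The transcripts of *Gria1* and *Gria2* have 48.5% and 36.8% GC, and no ratio was computed after the GC trend was removed. Their scaled log2 fold changes were -0.23 and 0.73 before that removal and -0.24 and 0.24 after it. The ratios of *Gria1*/*Gria3*, *Gria2*/*Gria4*, *Gria3*/*Gria4* and *Cacng2*/*Cacng3* also did not overlap between the constructs, with differences of -1.34, 0.90, 0.78 and 0.92 and the same exact p of 0.1. *Gria1*/*Gria4*, *Gria2*/*Gria3* and *Cnih2*/*Cnih3* overlapped (exact permutation test, p = 0.3, 0.3 and 1). The pairs share genes, so these ratios are not separate observations. How often ratios of other gene pairs fail to overlap was not computed. Among single genes, the scaled values of 2984 of the 8046 tested did not overlap, over both directions.

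**Figure D4:**
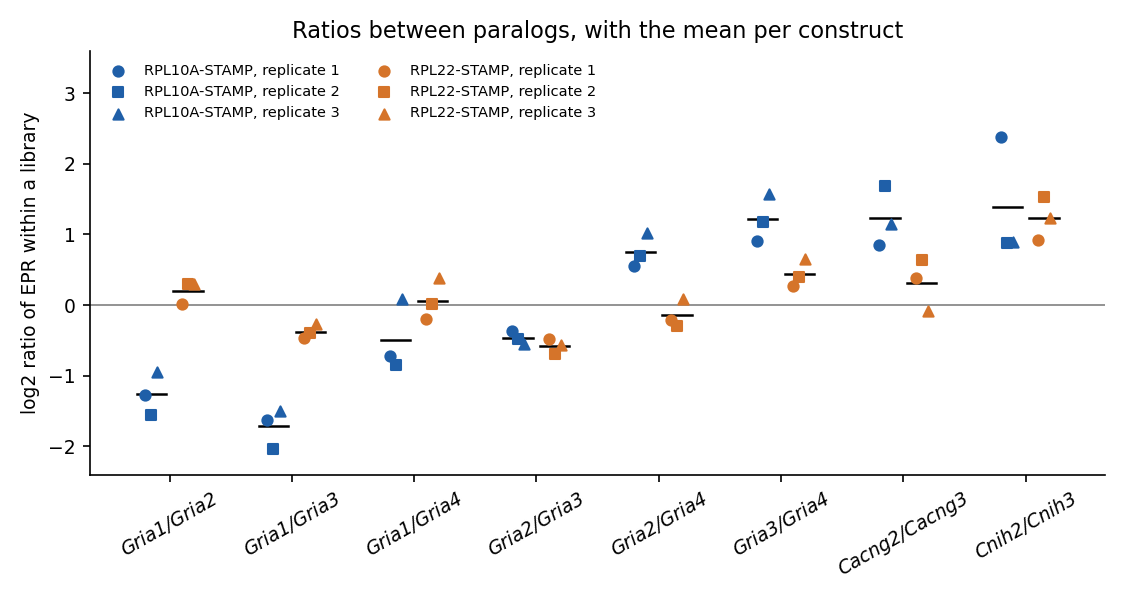
Log2 ratio of EPR between 2 paralogs in the same library (y axis) for the 8 pairs tested, with points for the 6 libraries and bars for the mean per construct. *Gria2*/*Gria3* and *Cnih2*/*Cnih3* overlap between the constructs, whereas *Gria1*/*Gria2* runs from 0.342 to 0.520 (as a ratio) with RPL10A-STAMP and from 1.01 to 1.23 with RPL22-STAMP.

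The order of the 10 genes by mean EPR, a measure per read and so not scaled to transcript length, began with *Gria3* (0.0507), *Gria2* (0.0365) and *Cnih2* (0.0338) with RPL10A-STAMP. *Gria3* was above *Gria2* in 3 of 3 libraries, whereas *Gria2* and *Cnih2* differed by less than their SD. *Cacng2* (0.0224) lay below *Cnih2* without overlap. From it over *Gria4* (0.0216), *Cacng8* (0.0192), *Gria1* (0.0155) and *Cnih3* (0.0148) to *Shisa9* (0.0125), neighbours differed by less than the larger of their SDs. *Cacng3* (0.00932) was last, below *Shisa9* in 3 of 3 libraries but within its SD. With RPL22-STAMP *Cnih2* (0.0315) and *Gria3* (0.0198) came first whereas *Gria2* (0.0132) fell among *Gria4* (0.0146) and *Cnih3* (0.0129), within their spread. There *Gria3* lay above *Gria1* (0.0153) without overlap. *Cacng2* (0.00988), *Shisa9* (0.00834), *Cacng3* (0.00793) and *Cacng8* (0.00786) were last and differed from their neighbours among these 4 by less than the larger SD.

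Of 11 relatives of the auxiliary proteins 8 were tested, and 1 was called, *Cacng7*, which encodes the type II TARP γ-7 and was higher with RPL22-STAMP. Among all genes tested, limma called 14.3% in either direction and 5.77% as higher with RPL22-STAMP, so 1 call among 8 genes says nothing of the relatives as a group. Its EPR was 0.0201, 0.0274 and 0.0243 with RPL10A-STAMP against 0.0398, 0.0609 and 0.0588 with RPL22-STAMP. No RPL10A-STAMP library reached the lowest RPL22-STAMP library. On the log2 scale *Cacng7* differed by -1.18 (limma, adjusted p = 0.00453), and by -0.85 after the GC trend was removed (limma, adjusted p = 0.0144), where 3.78% of all genes were called as higher with RPL22-STAMP. *Cacng5*, the other type II TARP, had -0.79 (limma, adjusted p = 0.0547), and its scaled values did not overlap in the same direction. The type I TARP *Cacng4* had 0.01, the cornichon homologs *Cnih1* and *Cnih4* 0.22 and -0.01, the receptor modulator *Gsg1l* -0.23, and the CKAMP relatives *Shisa6* and *Shisa7* -0.29 and -0.28 (limma, adjusted p of 0.266 or more). *Shisa8* and *Cacng1* were listed at 0 in all 6 libraries. *Cacng6* was edited in 3 libraries and was not tested.

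Among 18 other proteins of the native receptor complex and its assembly, 16 were tested, and limma called 3 as higher with RPL10A-STAMP and 1 as higher with RPL22-STAMP, against 8.51% and 5.77% of all genes. *Frrs1l*, which acts in receptor assembly in the endoplasmic reticulum, had a mean EPR of 0.0791 ± 0.0165 with RPL10A-STAMP against 0.0281 ± 0.0060 with RPL22-STAMP (SD, n = 3 each), with a log2 fold change of 0.91 (limma, adjusted p = 0.00653). *Sacm1l*, a phosphoinositide phosphatase, had 1.01 (limma, adjusted p = 0.0109) and *Nrn1*, which encodes neuritin, 0.75 (limma, adjusted p = 0.0238). *Olfm2*, an olfactomedin, had -0.64 (limma, adjusted p = 0.0398). After the GC trend was removed *Frrs1l*, *Sacm1l* and *Nrn1* remained called, with 0.66, 0.64 and 0.97, and so 3 of the list were higher with RPL10A-STAMP where 4.47% of all genes were.

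Of 28 trafficking and scaffold partners 26 were tested. Limma called 4 as higher with RPL22-STAMP and 0 as higher with RPL10A-STAMP, against 5.77% and 8.51% of all genes. In the RPL10A-STAMP direction 3 had an unadjusted p below 0.05. Over both directions the share was near the 14.3% of all genes. The 4 were the PDZ scaffold *Grip2* (-0.89; limma, adjusted p = 0.0400), *Napa*, which encodes α-SNAP (-0.60; limma, adjusted p = 0.0472), the clathrin adaptor subunit *Ap2m1* (-0.80; limma, adjusted p = 0.0152) and the small GTPase *Rab8a* (-0.60; limma, adjusted p = 0.0483). The calls of *Grip2*, *Napa* and *Rab8a* were lost in 12, 14 and 17 of 19 alternative settings. *Ap2m1* remained called after the GC trend was removed (-0.71), and *Rab11a* was then called in the same direction (-0.67). *Dlg3* and *Nptx2* were then called as higher with RPL10A-STAMP (0.54 and 0.76). Over both directions these were again 4 genes, against 8.25% of all genes. By direction, 3.78% of all genes were then called as higher with RPL22-STAMP and 4.47% as higher with RPL10A-STAMP. The median log2 fold change was -0.05 over the complex list and -0.23 over the trafficking list. Of the other glutamate receptors, none of the 3 NMDA receptor subunits tested was called by limma or had an unadjusted p below 0.05. Among 4 kainate receptor subunits *Grik2* was higher with RPL10A-STAMP (0.82; limma, adjusted p = 0.0105), and it was not called after removal (0.37; limma, adjusted p = 0.116). Every one of these comparisons shares its 6 libraries with those of the receptor genes.

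The genes nearest to each subunit, by Euclidean distance over the 6 scaled log2 values, were *Fabp3* and *Vps26b* for *Gria1* (distances 0.20 and 0.21). For *Gria2* they were *Rbfox1* and *Stard4* (0.12 and 0.17), and for *Gria3* *Prkca* and *Gda* (0.21 and 0.25). For *Gria4* they were *Aff4* and *Atpaf2* (0.30 and 0.30). No subunit was among the nearest genes of another.

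Between 9892 and 11195 genes were edited per library. All 5 neuron markers and the 4 excitatory neuron markers were edited in every library, and the 5 endothelial markers were listed at 0 in every library. The summed EPR, as deposited, of the excitatory markers was 0.0998 to 0.146 with RPL10A-STAMP against 0.0579 to 0.0671 with RPL22-STAMP, and 1 of the 4, *Slc17a6*, was called as higher with RPL10A-STAMP (log2 fold change 1.48; limma, adjusted p = 0.0185). After scaling the other 3 were not called: *Slc17a7* had 0.04, *Tbr1* 0.10 and *Neurod6* -0.22 (limma, adjusted p of 0.373 or more). The summed EPR of the inhibitory neuron markers was 0.0269 to 0.0528 and 0.0526 to 0.0695. Of these 5 markers 3 were tested, and *Gad2* was called as higher with RPL22-STAMP (-0.54; limma, adjusted p = 0.0446). *Gad1* had -0.72 (limma, adjusted p = 0.0639) and *Dlx1* -0.15 (limma, adjusted p = 0.519), and neither was called. What these marker values contribute to the *Gria2* and *Gria3* differences was not tested. The neuron markers summed to 0.0820 to 0.0985 and 0.0778 to 0.101, and *Syn1* was called as higher with RPL22-STAMP (-0.82; limma, adjusted p = 0.00814). *Map2* had 0.32, *Rbfox3* -0.10, *Tubb3* -0.08 and *Snap25* -0.27, none of them called. After the GC trend was removed *Syn1* was not called (limma, adjusted p = 0.0559), whereas *Slc17a6* and *Gad2* were (limma, adjusted p = 0.0465 and 0.0246). Of all genes tested limma called 14.3%, and 8.25% after removal. The astrocyte markers, of which 4 of 5 were edited throughout, overlapped at 0.140 to 0.238 and 0.109 to 0.197. Of the oligodendrocyte markers only *Mbp* was edited in all 6 libraries, at summed values of 0.0175 to 0.115 and 0.0563 to 0.0919, and the microglial markers summed to at most 0.0714, with *Csf1r* and *Tmem119* at 0.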

How the data were processed

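RNA of 6 cultures was sequenced as stranded mRNA libraries. The authors aligned trimmed single-end reads with STAR (mm10), found C-to-U edits with SAILOR and assigned reads to genes with featureCounts. They deposited 1 ratio per gene, edits divided by reads (EPR), without normalization between libraries. Reads mapping to several places could be kept. The methods call the replicates biological, and p values measure the spread between these libraries. The gene annotation is not named in the sources used here; 31011 of 31053 identifiers were found in GENCODE mouse release M21.

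The 8046 genes with edits in every library were tested, and their median in a library served as its scale: values were divided by it and returned to the EPR scale with the geometric mean of the 6 medians. Log2(EPR + 0.01) was fitted over these genes in R 4.3.3 (limma 3.58.1), with the variance as a trend of the mean and Benjamini-Hochberg adjustment over all of them (threshold 0.05). The limma fit was also run on simulated data with independent noise and log2 changes larger than those of *Gria2* and *Gria3*. The simulation held no GC trend and no shared replicate effect, so it does not bear on the settings in which those calls were lost. Paralog ratios were tested by exact sign flips over 6 libraries, and differences of 1 value per library by exact permutation. Alternatives covered scaling, pseudocount, filter, test, variance trend, GC content and length (natural splines with 4 degrees of freedom), replicate block and omission of each library. Copies were searched with BLAST 2.17.0. Exact tests ran in Python 3.11.15 (scipy 1.17.1, numpy 2.4.6, pandas 2.3.3), and figures were drawn with matplotlib 3.10.9.

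The genes, lists and tests were chosen with earlier results of these data known. Named are the 10 genes, listed relatives, every gene of the related lists that was called, and the 2 nearest genes of each subunit, of the 3 that the rule gives. A gene of the excitatory marker list and a nearest gene are not reported here. *Dlg3*, *Nptx2* and *Rab11a* were named after their values were seen, as were the markers given with a fold change.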

Additional observations from a re-analysis of the deposited data

How the results depend on the processing

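Both calls, *Gria2* and *Gria3*, held under 8 of the alternatives that kept all libraries: the other scalings, pseudocounts and filters, omission of genes with a mean EPR above 1, and a constant variance. No receptor gene was called by the methods' t-test (0; 0 of 8046 genes, though 1996 had an unadjusted p below 0.05, among them 4 of the 9 receptor genes, and limma called 1149), after removal of the GC trend (0), with the replicate block (0; limma adjusted p = 0.0544 for both genes) or with the replicate block and GC removal (0). With the length trend removed 1 was called, *Gria3*, and *Gria2* had 0.53 (limma, adjusted p = 0.0530). Leaving out each library gave 0 to 2 calls. After scaling, same-numbered libraries did not deviate together gene by gene (correlations 0.0437, 0.0464 and -0.0055). The scaling removes any shift of a whole library, so these correlations cannot show whether same-numbered libraries share a culture. Replicate 1 had the lowest median gene of each construct (0.0120 and 0.00907), and the sources used here do not state a pairing. The paired fit called 603 genes, and 227 with GC removal, against 663 with GC removal alone. Over the 6 omissions the number of all genes called ranged from 369 to 873; with genes edited in at least 3 libraries it was 754, and with at least 1 library 569.

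Genes that were not called changed sign in several settings. Without scaling *Gria1* had 0.0042, *Cacng3* 0.11, *Cnih2* 0.11, *Cnih3* 0.054, *Cnih4* 0.24 and *Shisa7* 0.023. In the methods' t-test, on log2 ratios of means, *Gria1* had 0.020, *Cacng3* 0.23, *Cnih2* 0.10, *Cnih3* 0.19, *Cnih4* 0.27, *Shisa6* 0.019 and *Shisa7* 0.022. With the GC trend removed, with or without the replicate block, *Gria4* had -0.093, *Cacng3* 0.15, *Cnih2* 0.23, *Cnih3* 0.036, *Gsg1l* 0.075, *Shisa6* 0.10 and *Shisa7* 0.018. With the length trend removed *Cnih3* had 0.030. With a pseudocount of 0.001 and with none, *Cacng4* had -0.044 and -0.11 and *Cnih4* 0.014 and 0.021. Over the 6 omissions *Cacng3* ranged from -0.21 to 0.046, *Cnih3* from -0.36 to 0.036, *Shisa9* from -0.033 to 0.26, *Cacng4* from -0.14 to 0.18 and *Cnih4* from -0.20 to 0.29. The causes were not tested. With a library left out the smallest exact p of a paralog pair is 0.0625, so no pair could pass there. The number of pairs without overlap between constructs ranged from 5 to 6. The difference of the median EPR ranged from 0.00339 to 0.00866 over the omissions. *Rab8a* lost its call in 17 of 19 alternatives, *Napa* in 14, *Olfm2* in 13, *Grip2* in 12, *Nrn1* in 9, *Ap2m1* in 5 and *Grik2* in 3, against 2 each for *Frrs1l*, *Sacm1l* and *Cacng7*. The reads behind each EPR are unknown, so how far depth limits genes with low EPR, such as *Cacng3* and *Cacng8*, cannot be given.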

Other observations

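*Prrt2*, which encodes a presynaptic protein also found in the native AMPA receptor complex, had an EPR of 21.8, 23.2 and 32.8 with RPL10A-STAMP against 42.5, 32.4 and 49.0 with RPL22-STAMP, that is, many edits for each counted read. It was not called (limma, adjusted p = 0.361).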
